A study of Mus musculus with 4 samples.

Results

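Genes of 9 receptors through which hormones, transmitters and lipid mediators act on smooth muscle tone were followed in sorted lung smooth muscle cells of *Tet3* mutant and control mice. They were *Chrm2*, *Chrm3*, *Adra1a*, *Ednra*, *Agtr1a*, *Htr2b*, *Hrh1*, *Cysltr1* and *Ptger3*, taken by symbol from the deposited table of 21462 genes. All 9 were listed, and all 9 were among the 16659 genes whose mean over the libraries was at least 10 and which were therefore tested. None of the 9 is known mainly as a relaxant receptor, so receptors that relax smooth muscle are described from a separate list.

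The study asked what loss of TET3, which converts 5-methylcytosine of DNA into 5-hydroxymethylcytosine, does to these cells. Libraries came from 2 Tet3 mutant and 2 control mice on the C57BL/6 background. Mutants carried homozygous floxed *Tet3* alleles (Tet3 fl/fl), a tamoxifen-inducible Cre under the α-SMA (*Acta2*) promoter and a tdTomato reporter. By the study's methods, controls in its experiments lacked the floxed alleles and carried the Cre allele, the reporter or both. Mice received tamoxifen by injection. As tdTomato+ cells were sorted here, these controls should have carried both the Cre allele and the reporter. Lungs were digested, cells bearing CD45 or the erythroid antigen Ter-119 were removed with magnetic beads, and DAPI- tdTomato+ cells were sorted. The Cre is active in any cell with an active α-SMA promoter, which includes pericytes and myofibroblasts. The labels give no age, sex or batch.

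Contractile agonist receptors are membrane proteins that signal through G proteins. Those coupled to Gq (*Chrm3*, *Adra1a*, *Ednra*, *Agtr1a*, *Htr2b*, *Hrh1* and *Cysltr1*) activate phospholipase C, which releases calcium from internal stores, activates myosin light chain kinase and shortens the cell. Those coupled mainly to Gi (*Chrm2* and *Ptger3*) lower cyclic AMP and so oppose relaxation. In the lung these receptors set the tone of airways and of pulmonary vessels, and several are drug targets in asthma or pulmonary hypertension.

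Start site regions of the receptors differed widely in their number of CpG dinucleotides, the sequence at which most cytosine methylation of mammalian DNA lies. RefSeq windows on GRCm38.p6 from 250 bases before to 50 bases after an annotated start were found for 6 of the 9 genes, and *Adra1a*, *Agtr1a* and *Cysltr1* had none in the table used. The 3 shown are those of the most abundant of these 6 receptors (*Ednra*, chr8:77724403-77724702, minus strand), of a receptor whose window had few CpGs (*Htr2b*, chr1:86111931-86112230, minus strand) and of a receptor whose window had many (*Ptger3*, chr3:157566626-157566925, plus strand). They are written 5′ to 3′ on the strand of the gene, with CpGs in capitals.
Ednra: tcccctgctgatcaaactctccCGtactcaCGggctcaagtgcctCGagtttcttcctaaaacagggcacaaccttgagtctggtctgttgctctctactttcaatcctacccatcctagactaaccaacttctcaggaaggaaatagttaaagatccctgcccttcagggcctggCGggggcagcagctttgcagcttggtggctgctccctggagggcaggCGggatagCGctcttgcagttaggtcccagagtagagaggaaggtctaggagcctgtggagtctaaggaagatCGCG
Htr2b: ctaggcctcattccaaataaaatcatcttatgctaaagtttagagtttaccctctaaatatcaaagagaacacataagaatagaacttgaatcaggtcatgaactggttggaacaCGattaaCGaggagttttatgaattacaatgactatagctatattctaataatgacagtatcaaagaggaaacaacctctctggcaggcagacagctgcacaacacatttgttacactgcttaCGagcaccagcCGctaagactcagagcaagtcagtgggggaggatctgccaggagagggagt
Ptger3: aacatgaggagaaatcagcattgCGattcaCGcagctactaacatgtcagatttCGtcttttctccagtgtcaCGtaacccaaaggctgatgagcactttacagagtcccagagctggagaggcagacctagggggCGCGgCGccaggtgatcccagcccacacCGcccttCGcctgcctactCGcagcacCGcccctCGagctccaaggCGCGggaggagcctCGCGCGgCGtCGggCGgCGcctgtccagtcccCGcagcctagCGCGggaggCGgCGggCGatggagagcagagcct

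The windows held 8 CpGs in *Ednra*, 4 in *Htr2b* and 27 in *Ptger3*, against a median of 7 over 32851 windows. *Chrm3* had 11 and *Chrm2* had 16. *Hrh1*, which has 4 annotated starts, had 28, 39, 5 and 4. The letters GGGCGG, read on either strand, are the core of a GC box and hold a CpG. They were present in 4 of the 9 windows of these genes and in 35.7% of all windows. The 4 were those of *Chrm2*, *Ptger3* and the first 2 of *Hrh1*. Those 2 windows of *Hrh1* overlap and share such letters, so they are not separate cases. The letters TATAAA on either strand were in 0 of the 9 windows and 13.6% of all. A CArG box, the motif bound by serum response factor, was in 0 and 1.63%. DNA methylation was not measured in the values used here.

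Values are normalized counts per gene, which the authors scaled between libraries and rounded to whole numbers. The reads assigned to genes were estimated at 6.32 M to 7.56 M in each library. Control replicate 2 stood apart from the other 3 libraries. The X-linked transcript *Xist* had 2 normalized counts there and 5214 to 6781 elsewhere, and the Y-linked gene *Ddx3y* had 774 there and 0 elsewhere. By these 2 genes that library came from a male and the other 3 from females, although the labels give no sex. Differences that rest on control replicate 2 therefore cannot be told apart from sex. The spread between libraries was wider among controls than among mutants. For the 10888 genes whose mean reached 100, the squared difference of 2 replicates was divided by their sum, a ratio that is about 1 under counting noise alone. It averaged 24.9 in controls and 6.49 in mutants. *Tet3* itself had 1847 and 1926 normalized counts in the controls, against 1534 and 1444 in the mutants. Its log2 difference was -0.34 (SE 0.10) with a limma adjusted p of 0.681. Deletion of floxed exons can leave transcript outside them, which a count over the whole gene includes, and single exons were not counted here. Genes that mark smooth muscle were abundant (*Acta2* averaged 404 and *Myh11* 275 normalized counts per kb of exon), but so were markers of other lung cells. Summed normalized counts lay between 10762 and 12895 for 10 smooth muscle markers, between 17878 and 22689 for 8 fibroblast markers, between 14690 and 16142 for 10 endothelial markers and between 9358 and 19495 for 8 alveolar type 2 cell markers. These sums were not divided by exon length and cover lists of unlike size, so they do not rank the cell types. In such bulk RNA, fewer cells of a type and less RNA per cell cannot be told apart.

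Transcript levels of the receptors spanned a wide range, and *Ednra* and *Adra1a* made up most of the signal. To compare genes, normalized counts were divided by the length of exon sequence in kb. *Ednra* had the highest level at a mean of 245 normalized counts per kb, higher than 94.6% of the genes tested. *Adra1a* followed with 93.4 (above 68.4%) and *Cysltr1* with 33.3 (above 36.0%). The other 6 receptors had means of 14.1 for *Chrm2*, 14.0 for *Ptger3*, 13.0 for *Agtr1a*, 10.3 for *Hrh1*, 7.39 for *Htr2b* and 6.84 for *Chrm3*, levels above 7.71% to 17.9% of the genes tested. The levels of *Ednra*, *Adra1a* and *Cysltr1* did not overlap with each other or with the rest in the 4 libraries. From *Chrm2* downward each gene overlapped with its neighbour in this order. *Ednra* and *Adra1a* together held 83.2% and 77.4% of the summed level per kb of the 9 receptors in controls and 74.9% and 73.3% in mutants. That summed level was 507 and 359 per kb in controls and 448 and 437 in mutants, so both mutants lay between the controls.

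**Figure D1:**
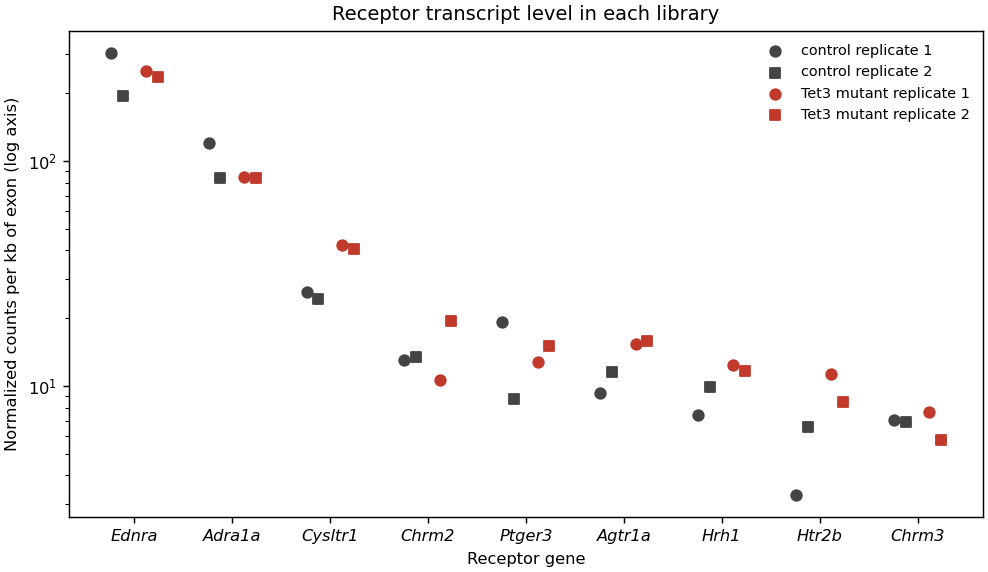
Level of each receptor gene in each library, in normalized counts per kb of exon on a log axis, ordered from left to right by mean level, with controls in grey and Tet3 mutants in red. *Ednra*, *Adra1a* and *Cysltr1* lie above the other 6 receptors in all 4 libraries, and both mutants lie above both controls in *Cysltr1*, *Agtr1a*, *Hrh1* and *Htr2b*.

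No receptor passed the test for a difference between the groups. Of the 9, 0 had a limma adjusted p under 0.05, as had 0% of the 16659 genes tested. At an unadjusted p under 0.05 there was 1 of 9 (11.1%), *Cysltr1*, against 6.68% of all genes tested. Both mutants lay above both controls in 4 of 9 (44.4%), namely *Cysltr1*, *Agtr1a*, *Hrh1* and *Htr2b*, and in 0 of 9 below. Over all genes tested the groups did not overlap in 39%, with 19.6% higher and 19.5% lower in the mutants. The median log2 difference (Tet3 mutant minus control, on log2 of the normalized count plus 1) was 0.12 over the 9 receptors. Of these, 7 were above 0 and 2 below. Over all genes tested the median was -0.01, with 8156 above 0 and 8502 below. Without control replicate 1 the receptors' median was 0.33, without control replicate 2 it was 0.14, and without the mutant replicates 1 and 2 it was 0.44 and 0.14.

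*Ednra*, the endothelin A receptor, which binds endothelin-1 and constricts pulmonary arteries, lies on chromosome 8 from 77663031 to 77724464 (GRCm38, minus strand). It had 1649 and 1061 normalized counts in the controls, against 1373 and 1292 in the mutants. Both mutants lay between the controls. The group means were 1355 ± 416 and 1332.5 ± 57.3 (SD, n = 2 each). On the log2 scale the difference was 0.01 (SE 0.22, 95% interval -0.56 to 0.58) with a limma adjusted p of 0.993. The value rested on the distance between the controls, whose squared difference over sum was 128 against 2.46 in the mutants. The estimated log2 difference was 0.33 without control replicate 1, -0.31 without control replicate 2 and -0.034 without Tet3 mutant replicate 1. Of its exon bases, 1.66% are shared with the transcript *4933431K23Rik* on the other strand.

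*Adra1a*, the alpha-1A adrenergic receptor, through which noradrenaline and adrenaline contract vascular muscle, lies on chromosome 14 from 66635251 to 66771168. It had 1048 and 736 normalized counts in the controls, against 743 and 733 in the mutants. Control replicate 1 was high and the other 3 libraries were close to each other. The means were 892 ± 221 in controls and 738 ± 7.07 in mutants (SD, n = 2 each). The log2 difference was -0.25 (SE 0.19, 95% interval -0.73 to 0.23) with a limma adjusted p of 0.729. Without control replicate 1 the log2 difference was 0.0039, and without control replicate 2 it was -0.51.

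*Cysltr1*, the receptor for cysteinyl leukotrienes that mediates leukotriene-driven bronchoconstriction and is blocked by montelukast, lies on chromosome X from 106574346 to 106603679. It had 134 and 125 normalized counts in the controls, against 218 and 208 in the mutants. The mutants were higher, and the replicates of each group were close together. The means were 129.5 ± 6.36 in controls and 213 ± 7.07 in mutants (SD, n = 2 each), a 1.64-fold difference with a 95% interval of 1.21 to 2.22. On the log2 scale the difference was 0.71 (SE 0.17). It had the smallest unadjusted limma p of the 9 receptors, 0.0083, which after adjustment over all genes tested was 0.681. Replicates differed by no more than counting noise would give, with a squared difference over sum of 0.313 in controls and 0.235 in mutants. The log2 difference stayed between 0.66 and 0.76 when 1 library at a time was left out.

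Summed marker genes differed between the groups in both directions. Summed normalized counts of 10 macrophage markers were 7473 and 5831 in the controls, against 7812 and 9188 in the mutants, and 10 of 10 had a log2 difference above 0. Ciliated cell markers, with 7 of 8 above 0, summed to 2516 and 2737 in controls and to 4643 and 3231 in mutants. Pericyte markers, with 8 of 8 above 0, summed to 5162 and 5734 and to 8104 and 6764. *Rgs5*, also known from pericytes, was not in that list and was lower in both mutants (log2 difference -0.55). Smooth muscle markers, with 9 of 10 above 0, summed to 10762 and 11305 and to 12895 and 11870. Neutrophil markers (6 of 6 above 0) summed to 747 and 538 and to 1389 and 852, and T cell markers (8 of 8 above 0) to 808 and 248 and to 900 and 864. Alveolar type 2 markers went the other way, with 0 of 8 above 0, at 12856 and 19495 and then 9358 and 11560. Dissociation stress genes (0 of 10 above 0) summed to 8130 and 10540 and to 8697 and 6162, so that the groups overlapped in these sums. None of the genes tested in these lists was at 0 in any library. Markers of fibroblasts (7 of 8), endothelium (9 of 10), club cells (5 of 5), B cells (5 of 6) and cardiomyocytes (7 of 8) also lay mostly above 0. Counts above 0 were lower for airway smooth muscle (3 of 5), alveolar type 1 cells (3 of 7) and mesothelium (2 of 5). The same held for neurons and Schwann cells (1 of 3) and mast cells (0 of 2). Over all genes tested, 8156 were above 0 and 8502 below. The part of other cells in the levels of *Cysltr1*, *Agtr1a*, *Hrh1* and *Htr2b* was not tested.

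*Agtr1a*, the angiotensin II type 1a receptor, lies on chromosome 13 from 30336441 to 30382867. It had 26 and 32 normalized counts in the controls, against 43 and 44 in the mutants. Both mutants were above both controls. The means were 29 ± 4.24 and 43.5 ± 0.707 (SD, n = 2 each), 1.49-fold apart. The estimated log2 difference was 0.58 (SE 0.32, 95% interval -0.25 to 1.40) with a limma adjusted p of 0.689. Its near-identical paralog *Agtr1b* lies elsewhere in the genome, and reads that mapped to several places were excluded, so the levels of both genes are uncertain.

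*Hrh1*, the histamine H1 receptor, which contracts airway muscle when mast cells release histamine, lies on chromosome 6 from 114397936 to 114483296. It had 33 and 44 normalized counts in the controls, against 55 and 52 in the mutants, again with no overlap. The means were 38.5 ± 7.78 and 53.5 ± 2.12 (SD, n = 2 each), 1.39-fold apart. The log2 difference was 0.48 (SE 0.31, 95% interval -0.32 to 1.28) with a limma adjusted p of 0.711. Without control replicate 1 the log2 difference was 0.28, and without control replicate 2 it was 0.68.

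*Htr2b*, the serotonin 2B receptor of pulmonary vessels, lies on chromosome 1 from 86099026 to 86111970. It had 7 and 14 normalized counts in the controls, against 24 and 18 in the mutants. These were the fewest counts of the 9 receptors, and both mutants were above both controls. The means were 10.5 ± 4.95 and 21 ± 4.24 (SD, n = 2 each), a 1.99-fold difference. The log2 difference of 0.99 was the largest of the 9, with the widest interval (SE 0.51, 95% interval -0.32 to 2.31), and the limma adjusted p was 0.687. The log2 difference was 0.54 without control replicate 1 and 1.45 without control replicate 2. *Htr2b* shares 11.8% of its exon bases with the proteasome subunit gene *Psmd1* on the other strand, and the sources used here do not say whether strand was used in counting.

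*Chrm3*, the M3 muscarinic receptor, is the main receptor by which acetylcholine from parasympathetic nerves contracts airways, and it lies on chromosome 13 from 9875486 to 10360847. It had 44 and 43 normalized counts in the controls, against 48 and 36 in the mutants, so that the controls lay between the mutants. The means were 43.5 ± 0.707 and 42 ± 8.49 (SD, n = 2 each). On the log2 scale the difference was -0.06 (SE 0.32, 95% interval -0.87 to 0.75) with a limma adjusted p of 0.966. Leaving out Tet3 mutant replicate 1 gave -0.27 and leaving out replicate 2 gave 0.14.

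The Gi-coupled receptors likewise gave overlapping groups. *Chrm2*, the M2 muscarinic receptor, lies on chromosome 6 from 36388084 to 36528414, and had 79 and 81 normalized counts in the controls, against 64 and 118 in the mutants. Here the mutants were far apart, with a squared difference over sum of 16.0 against 0.025 in the controls. The means were 80 ± 1.41 and 91 ± 38.2 (SD, n = 2 each). The estimated log2 difference was 0.12 (SE 0.35, 95% interval -0.79 to 1.02) with a limma adjusted p of 0.940, and leaving out Tet3 mutant replicate 1 gave 0.56 and leaving out replicate 2 gave -0.32. Per kb of exon, the level of *Chrm2* was above that of *Chrm3* in all 4 libraries, at 13.1 against 7.04 and 13.4 against 6.88 in controls and at 10.6 against 7.68 and 19.5 against 5.76 in mutants. Of its exon bases, 2.35% are shared with *9330158H04Rik* on the other strand.

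*Ptger3*, the EP3 receptor for prostaglandin E2, lies on chromosome 3 from 157566892 to 157645888, and had 109 and 50 normalized counts in the controls, against 73 and 86 in the mutants. Both mutants lay between the controls, as for *Ednra*. The group means were equal at 79.5 (SD 41.7 in controls and 9.19 in mutants, n = 2 each). The log2 difference was 0.10 (SE 0.42, 95% interval -0.99 to 1.19) with a limma adjusted p of 0.958, and it was 0.65 without control replicate 1 and -0.46 without control replicate 2.

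**Figure D2:**
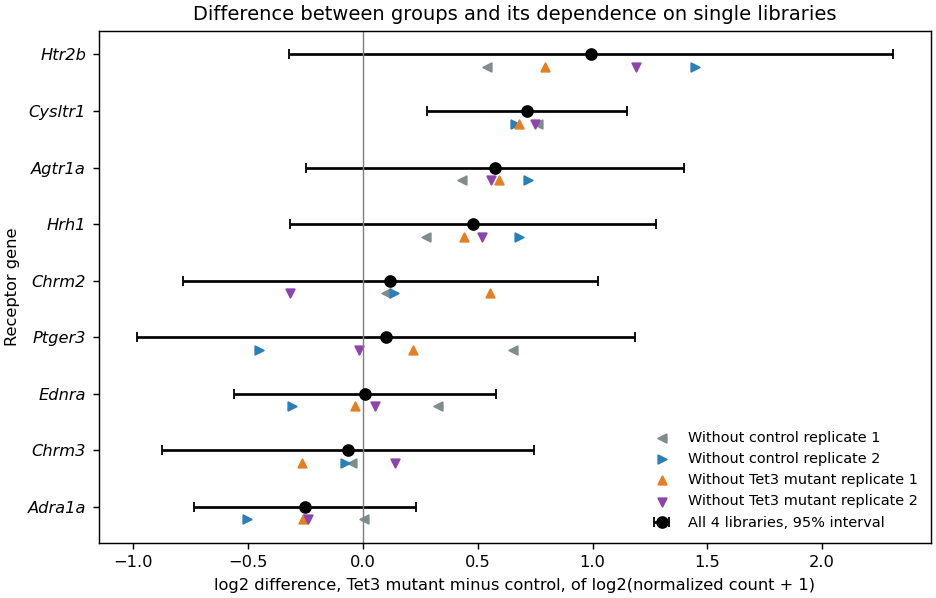
Difference between Tet3 mutant and control for each receptor on the log2 scale, with black points and bars for the limma estimate and its 95% interval over all 4 libraries and coloured triangles for the estimate without 1 library. Only the interval of *Cysltr1* (0.28 to 1.15) lies wholly above 0, and the triangles of *Ednra*, *Ptger3*, *Chrm2*, *Chrm3* and *Adra1a* fall on both sides of 0.

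*Cysltr1*, *Adra1a* and *Chrm2* each made up most of the transcripts compared in their receptor family in every library. These shares of summed levels per kb of exon were chosen after the values were seen, and with 2 libraries per group an exact permutation test cannot go below 0.333, so they are given as a description. *Cysltr1* made up 85.2% and 88.6% of cysteinyl leukotriene receptor transcripts in controls and 79.2% and 80.6% in mutants. The groups did not overlap in this share. The remainder was *Cysltr2*, with 13 and 9 normalized counts in the controls, against 32 and 28 in the mutants, a log2 difference of 1.39 (SE 0.42) and a limma adjusted p of 0.681, so both leukotriene receptors were higher in both mutants. *Adra1a* made up 72.7% and 71.3% of the transcripts of the 3 alpha-1 adrenergic receptors in controls and 56.8% and 60.7% in mutants, again without overlap. Lack of overlap is common with 2 libraries per group, and was seen in the values of 39% of all genes tested. *Adra1d* had 49 and 56 normalized counts in the controls, against 101 and 75 in the mutants, a log2 difference of 0.72 (SE 0.28) with a limma adjusted p of 0.681, and *Adra1b* had 65 and 15 and then 39 and 50.

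*Ptger3* was the smallest of the 4 prostaglandin E receptors in every library, at 11.2% and 11.1% in the controls, against 8.37% and 9.54% in the mutants, which did not overlap either. The largest were *Ptger1*, which is coupled to calcium entry, and the relaxant *Ptger2* and *Ptger4*, with mean levels of 45.6, 40.7 and 40.2 normalized counts per kb. In the other 5 families the groups overlapped in the member's share. *Ednra* and the endothelin B receptor gene *Ednrb* were near parity, with *Ednra* at 58.3% and 49.9% of endothelin receptor transcripts in controls and 52.5% and 49.5% in mutants. *Chrm2* held 63.5% and 62.3% of the transcripts of the muscarinic receptors M1 to M3 in controls and 52.2% and 74.9% in mutants. *Hrh1* and the Gs-coupled *Hrh2* were also near parity, with *Hrh1* between 46.6% and 50.5%. *Agtr1a* ranged from 32.8% to 65.5% of angiotensin type 1 receptor transcripts, both extremes being controls, since *Agtr1b* had 41 and 13 normalized counts in the controls, against 46 and 40 in the mutants. *Htr2b* ranged from 38.2% to 66.4% of serotonin type 2 receptor transcripts, again with both extremes in controls.

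**Figure D3:**
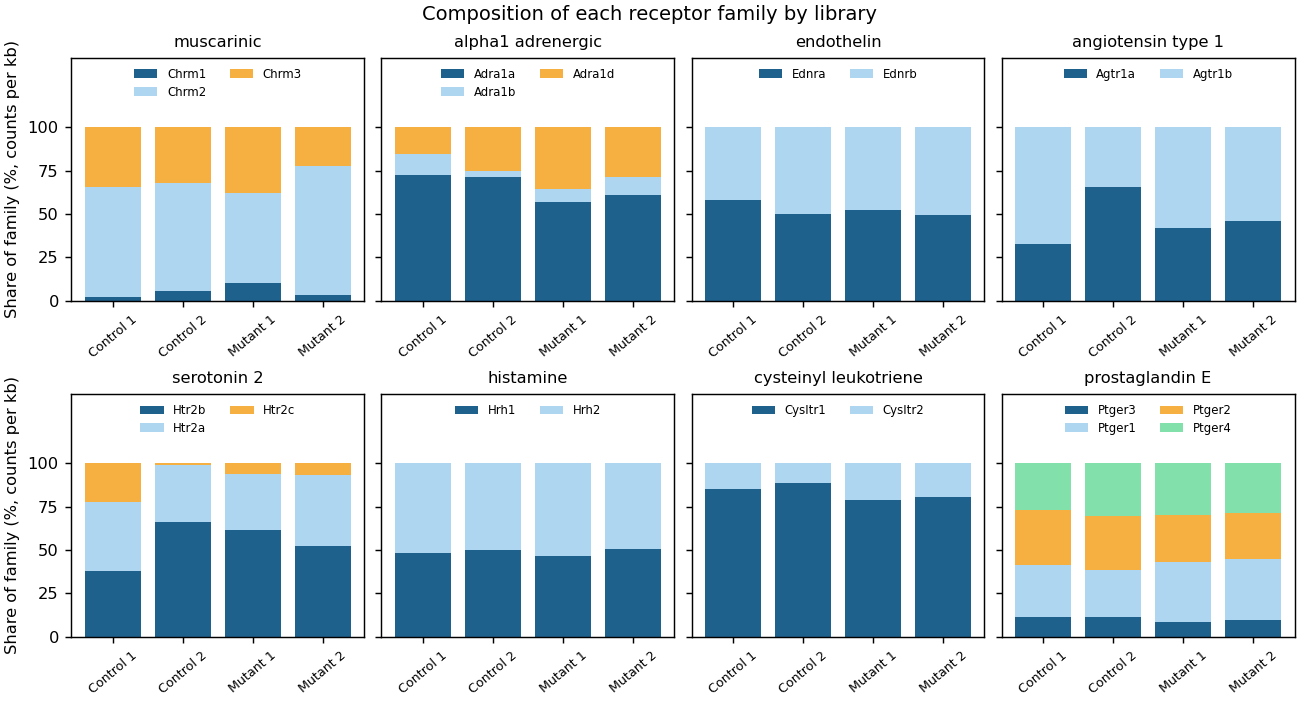
Share of each receptor family's summed level (normalized counts per kb of exon) taken by each gene in each library, as stacked bars that add up to 100%. Both mutants (56.8% and 60.7%) lie below both controls (72.7% and 71.3%) in the share of *Adra1a*, and likewise in that of *Cysltr1* (79.2% and 80.6% against 85.2% and 88.6%). The groups did not overlap in the values of 39% of all genes tested.

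The genes whose profile over the 4 libraries was nearest to each of the 3 receptors of highest mean were searched among 12059 genes, by Euclidean distance on centred log2 values. They were *Cblb* (distance 0.035) and *Rbm41* (0.035) for *Ednra*, and *Ifi203-ps* (0.031) and *Klhdc8b* (0.051) for *Adra1a*. For *Cysltr1* they were *Cfap157* (0.021), with 50 and 46 normalized counts in the controls, against 82 and 77 in the mutants, and *Cfap52* (0.062), with 57 and 56 and then 98 and 91. Both are genes of motile cilia. With 4 libraries many genes lie this close, and 592, 259 and 108 genes were within a distance of 0.25 of *Ednra*, *Adra1a* and *Cysltr1*.

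Among other contractile agonist receptors more values lay above 0 than below, with none past the test. Of 38 listed, 26 were tested and 0 had a limma adjusted p under 0.05. At an unadjusted limma p under 0.05 there were 4 (15.4%), 2 higher and 2 lower in the mutants, against 6.68% of all genes tested. Their median log2 difference was 0.48, with 21 above 0 and 5 below, but it was 0.035 without control replicate 2 and 0.72 without control replicate 1. The most abundant per kb was *F2r*, the thrombin receptor, with 1805 and 1438 normalized counts in the controls, against 1796 and 1509 in the mutants and a log2 difference of 0.03 (SE 0.16). *Ednrb* had 919 and 831 and then 967 and 1027, at 0.19 (SE 0.11), and the sphingosine-1-phosphate receptor gene *S1pr3* had 1017 and 670 and then 682 and 861, at -0.11 (SE 0.24). The lower receptors were *P2ry2*, which binds ATP and UTP (282 and 304 in the controls, against 174 and 208 in the mutants, -0.62, SE 0.17), and *F2rl1*, the protease-activated receptor 2 (104 and 248, then 39 and 68, -1.62, SE 0.51). The limma adjusted p was 0.681 for both. Without control replicate 2 the log2 difference was -0.999 for *F2rl1* and 0.12 for *Ednrb*.

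Receptors that relax smooth muscle raise cyclic AMP or cyclic GMP. Of 24 such genes listed, 19 were tested and 0 had a limma adjusted p under 0.05. At an unadjusted limma p under 0.05 there were 3 (15.8%), 2 higher and 1 lower in the mutants, against 6.68% of all genes tested. The median log2 difference was 0.15, with 13 above 0 and 6 below, and it was -0.014 without control replicate 2 and 0.32 without control replicate 1. *Calcrl*, the receptor of adrenomedullin and calcitonin gene-related peptide, was the most abundant per kb, with 2431 and 2081 normalized counts in the controls, against 2646 and 2353 in the mutants (log2 difference 0.15, SE 0.13). The natriuretic peptide receptors were both lower in the mutants without passing the test, *Npr1* with 1029 and 1771 against 957 and 1019 (-0.45, SE 0.27) and *Npr2* with 1114 and 1142 against 851 and 940 (-0.33, SE 0.11). *Gucy1b1*, a subunit of the nitric oxide receptor guanylate cyclase, had 591 and 646 in the controls, against 909 and 735 in the mutants (0.40, SE 0.15). *Adcyap1r1*, the PACAP receptor, had 200 and 96 in the controls, against 341 and 261 in the mutants (1.10, SE 0.38). Single libraries moved these values. Without control replicate 2 the log2 difference was -0.059 for *Npr1*, 0.57 for *Adcyap1r1* and 0.038 for *Calcrl*, and without control replicate 1 it was -0.84, 1.63 and 0.26. That of *Gucy1b1* was 0.25 without Tet3 mutant replicate 1.

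Downstream of the Gq-coupled receptors, genes of G proteins, phospholipases, calcium release channels and myosin regulators were close to even between the groups. All 30 genes listed were tested, 15 had a log2 difference above 0 and 15 below, and 0 had a limma adjusted p under 0.05. At an unadjusted limma p under 0.05 there was 1 (3.33%), against 6.68% of all genes tested. *Mylk*, myosin light chain kinase, had 5721 and 4705 normalized counts in the controls, against 5134 and 4476 in the mutants (-0.11, SE 0.15). *Ppp1r14a*, the inhibitor of myosin phosphatase known as CPI-17, had 600 and 508 and then 534 and 510 (-0.08, SE 0.13). *Gnai2*, a Gi subunit through which *Chrm2* and *Ptger3* can signal, had 1400 and 1417 and then 1502 and 1428 (0.06, SE 0.10). *Itpr3*, an inositol trisphosphate receptor that releases calcium, was the gene at an unadjusted p under 0.05, with 1256 and 1826 in the controls, against 850 and 1067 in the mutants (-0.67, SE 0.22, limma adjusted p 0.681). *Itpr2* (-0.29, SE 0.15) and *Gna13* (-0.18, SE 0.11) were also lower in both mutants without passing the test. Without control replicate 2 the log2 differences of *Itpr3*, *Itpr2* and *Gna13* were -0.40, -0.12 and -0.087, and without control replicate 1 they were -0.94, -0.45 and -0.27.

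Genes that switch these receptors off gave 0 of 14 with a limma adjusted p under 0.05. Their median log2 difference was 0.20, with 11 above 0 and 3 below. The groups did not overlap in 8 (57.1%), 7 higher and 1 lower in the mutants, against 39% of all genes tested. At an unadjusted limma p under 0.05 there were 2 (14.3%), 1 higher and 1 lower in the mutants, against 6.68% of all genes tested. *Arrb1*, an arrestin that uncouples phosphorylated receptors, had 2743 and 2579 normalized counts in the controls, against 3008 and 2658 in the mutants (0.09, SE 0.11). *Grk2*, a receptor kinase, had 890 and 1000 and then 1066 and 1017 (0.14, SE 0.11), and *Rgs2*, which accelerates Gq inactivation, had 837 and 793 and then 956 and 792 (0.09, SE 0.13). Among other regulators of G protein signalling, *Rgs3* had 443 and 452 in the controls, against 569 and 554 in the mutants (0.33, SE 0.11). *Rgs5*, known from pericytes but not among the pericyte markers summed here, was lower in both mutants, with 244 and 342 and then 192 and 201 (-0.55, SE 0.21). *Rgs18* had 100 and 50 and then 110 and 170 (0.94, SE 0.42). Without control replicate 2 the log2 differences were -0.31 for *Rgs5* and 0.45 for *Rgs18*, and without control replicate 1 they were -0.80 and 1.43.

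Genes that make or remove the ligands gave 0 of 24 tested with a limma adjusted p under 0.05 and a median log2 difference of 0.12. At an unadjusted limma p under 0.05, 2 were higher and 1 lower in the mutants, against 3.83% and 2.85% of all genes tested. *Edn1*, which encodes the endothelin-1 that *Ednra* binds, had 180 and 110 normalized counts in the controls, against 246 and 236 in the mutants (0.77, SE 0.27, limma adjusted p 0.681). *Tbxas1*, thromboxane synthase, had 316 and 286 and then 458 and 441 (0.58, SE 0.13, limma adjusted p 0.681). *Mme*, neprilysin, which degrades endothelin and other peptides, had 2679 and 2796 in the controls, against 1779 and 2144 in the mutants (-0.49, SE 0.13, limma adjusted p 0.681). Without control replicate 2 the log2 difference of *Edn1* was 0.42, and without control replicate 1 it was 1.12. The groups did not overlap in 10 of the 24 genes (41.7%), these 3 among them, against 39% of all genes tested. The most abundant per kb, *Hpgd*, which inactivates prostaglandins (0.15, SE 0.12), *Ace*, which makes angiotensin II (0.09, SE 0.11), and the endothelin-converting enzyme gene *Ece1* (0.03, SE 0.14), differed less than these.

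**Figure D4:**
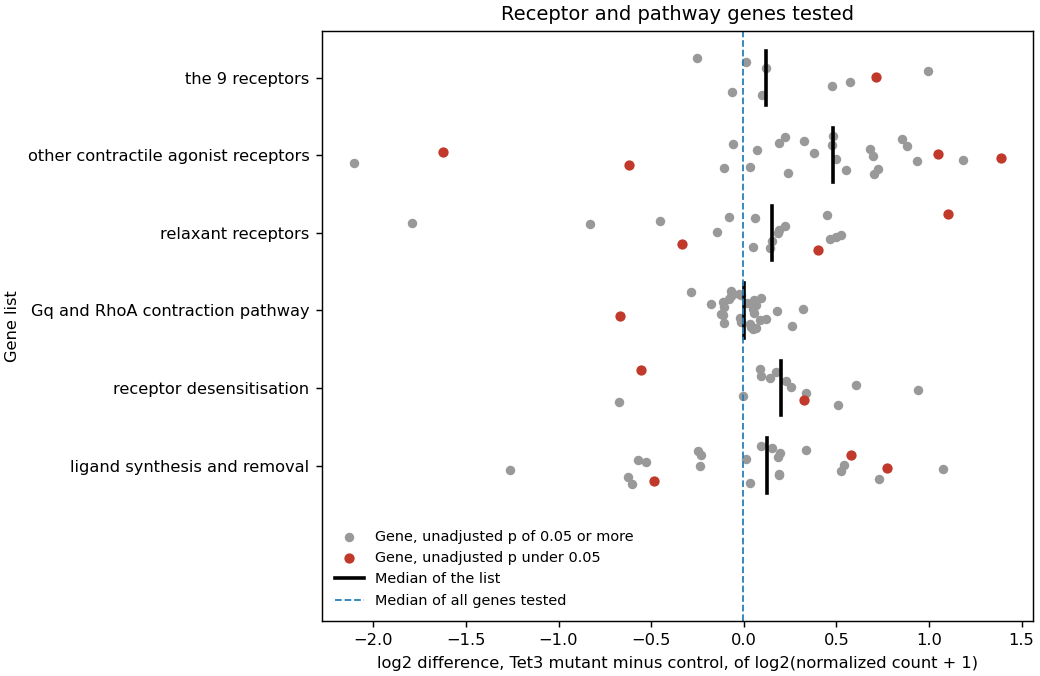
Log2 difference between Tet3 mutant and control of each gene tested in the 9 receptors and 5 related lists, with genes at an unadjusted limma p under 0.05 in red, the median of each list as a black bar and the median of all genes tested as a dashed line. Only *Cysltr1* is red among the 9 receptors, and the other contractile agonist receptors have the median farthest from 0, at 0.48.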

How the data were processed

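Ribosome-depleted total RNA was sequenced as stranded, single-end libraries. By the study's methods and the submitters' processing notes, reads were trimmed (Trimmomatic 0.36), aligned to mm10 (GRCm38) with STAR 2.6.0c and counted over exons with featureCounts (Subread 1.6.0), leaving out reads that mapped to several places or genes. The use of strand in counting is not given in the sources used here. The authors then scaled the counts between samples using DESeq2. As deposited, the values are a score, namely normalized counts that the authors rounded to whole numbers, and not raw counts. The authors' own comparison columns were not used.

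The genotype label set each sample's group. Deposited totals were 7003231 and 7164573 in the controls, against 6893578 and 6805272 in the mutants. The scaling factor of each library (0.961, 1.05, 1.09 and 0.901 in the same order) was estimated from missing and doubled low values, and totals divided by it gave the reads per library. Several read numbers can share 1 rounded value, so raw reads were not recovered and a count test was not run. Genes with a mean of at least 10 were tested on log2(value + 1), which understates the change of low genes, with limma 3.58.1 in R 4.3.3 (lmFit, eBayes with a mean-variance trend, two-sided). P-values were adjusted by Benjamini-Hochberg over the 16659 genes tested, with a threshold of 0.05, and the code was tested on simulated data. Intervals are limma's 95% intervals. They and the p-values rest on the spread between 2 mice per group, moderated by limma toward the spread of genes of like level. Exon lengths came from GENCODE M21, in which all 9 genes had the coordinates of the deposited table.

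The receptors and all gene lists were chosen with earlier results of these data known. Named were the 9 receptors, *Tet3*, for each related list the 3 genes of highest level per kb and the 3 of smallest unadjusted p with a mean of at least 50, and for the 3 receptors of highest mean the 2 nearest profiles. Other genes named were chosen after their values were seen. Alternatives were pseudocounts of 0.5 and 8, minimum means of 1 and 50 or none, equal totals, quantile normalization, limma without the trend or with a robust variance model, the replicate number as a block, and leaving out each library.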

Additional observations from a re-analysis of the deposited data

How the results depend on the processing

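No receptor passed the threshold under any of 10 other settings, and 86 of 86 receptor differences kept their direction there. Minimum means, variance models and the block leave a difference unchanged by design. Only the pseudocounts, equal totals and quantile normalization could have changed a direction. A minimum mean of 50 kept 5 of the 9 receptors. The smallest limma adjusted p of a receptor under these settings, 0.412, was that of *Cysltr1* with the replicate number as a block. Without the mean-variance trend 2 receptors had an unadjusted limma p under 0.05, *Cysltr1* and *Agtr1a*, as had 1138 of the 16659 genes tested. A minimum mean of 50 moved the median of the other contractile receptors to 0.21, with fewer genes tested. The median of the Gq and RhoA pathway was 0.048 at equal totals and 0.071 after quantile normalization, which also turned *Mylk* to 0.0046. Those scalings moved the median of all genes to 0.04 and 0.02.

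Leaving out 1 library leaves a group of 1, assumed to vary like the other group. The number of receptors at an unadjusted p under 0.05 then ranged from 0 to 4, with 4 (*Adra1a*, *Cysltr1*, *Ednra* and *Htr2b*) without control replicate 2 and 2 (*Cysltr1* and *Ednra*) without control replicate 1, and 0 passed after adjustment. Over all genes tested, the number at that level also changed with the library left out. It was higher than in the full fit without control replicate 1 and lower in the other 3 fits. These counts therefore do not single out receptors. *Ednra* was counted in opposite directions, with a log2 difference of 0.33 without control replicate 1 and -0.31 without control replicate 2. The cause of this range was not tested. Medians ranged from 0.14 to 0.44 for the receptors, 0.035 to 0.72 for other contractile receptors, -0.014 to 0.32 for relaxant receptors and -0.021 to 0.043 for the Gq and RhoA pathway. Receptors that changed sign were *Chrm2* (-0.32 to 0.56), *Chrm3* (-0.27 to 0.14), *Adra1a* (-0.51 to 0.0039), *Ednra* (-0.31 to 0.33) and *Ptger3* (-0.46 to 0.65). Related genes that changed sign were *Arrb1* (-0.00094 to 0.18), *Ece1* (-0.12 to 0.18), *F2r* (-0.13 to 0.20), *Mylk* (-0.26 to 0.027), *Ppp1r14a* (-0.20 to 0.039), *Rgs2* (-0.041 to 0.23) and *S1pr3* (-0.41 to 0.19). *Tet3* stayed between -0.39 and -0.30.

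Controls and mutants share replicate numbers, but the deviations of same-numbered libraries correlated only weakly (Pearson 0.13, Spearman 0.12, 16659 genes, 2 pairs), and a pairing is not shown. With the replicate number as a block, 0 receptors passed, 1 had an unadjusted p under 0.05 and the receptors' median was 0.12, while 1637 of all genes had an unadjusted p under 0.05, against 1112 without the block. *Htr2b*, with 7 to 24 normalized counts, had the lowest counts and the widest interval of the 9.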

Other observations

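In several genes of the related lists, chosen after their values were seen, control replicate 2 lay far from the other 3 libraries. *Avpr1a*, the vasopressin V1a receptor, had 39 normalized counts in the first control, 199 in the second and 13 and 30 in the mutants (log2 difference -2.10, SE 0.86). *Adora2b*, a relaxant adenosine receptor, had 65, 218, 21 and 54 in the same order (-1.79, SE 0.73). *Ramp1*, a partner of *Calcrl*, had 188, 385, 124 and 184 (-0.83, SE 0.40). The receptor kinase gene *Grk3* had 678, 1603, 682 and 626 (-0.67, SE 0.40). Both mutants also lay below both controls in *Avpr1a*, *Adora2b* and *Ramp1*, as in 19.5% of all genes tested, but not in *Grk3*. Summed markers of alveolar type 2 cells were highest in that library as well, at 19495, and were lower in both mutants than in both controls. Of those 8 markers, 6 were lower in both mutants, against 19.5% of all genes tested. Lower at an unadjusted limma p under 0.05 were 3 of the 8, against 2.85% of all genes tested. In the other direction, *Npy1r*, a neuropeptide Y receptor, had 368, 87, 330 and 257 (0.70, SE 0.67) and *Adra1b* had 65, 15, 39 and 50 (0.47, SE 0.72), and summed T cell markers were 808, 248, 900 and 864. The part of other cells in these values was not tested.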
